A study of Mus musculus with 6 samples.

Results

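Among the genes measured in mouse stem cells, neural progenitors and cells labelled as a Phc1 knock-out, 10 are described here: T, Eomes, Mixl1, Gsc, Lhx1, Evx1, Cdx1, Cdx2, Fgf8 and Wnt3. They are a list of genes of the primitive streak, the organizer and the mesendoderm, drawn up with earlier results of these data known, and were matched by symbol among the 37620 Ensembl genes of the count tables. All 10 were found and all 10 passed the filter on low counts.

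RNA was sequenced in 6 libraries, 2 in each of 3 groups, with single-end reads of 50 bases. ESC were wild-type embryonic stem cells of the J1 line, grown with LIF and serum on inactivated embryonic fibroblast feeders and freed of feeders before use. NPC were wild-type neural progenitors made from J1 ESC in culture. Phc1-KO cells had the genotype Phc1-/- and were also derived from J1 ESC; the labels do not say which part of the gene was deleted or how many clones were used. Their cell type entry reads NPC, whereas the title and design of the study call them ESC. The design asks how NPC and the knock-out differ from wild-type ESC. The labels call the 2 libraries of a group biological replicates and do not say whether they came from separate cultures.

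The primitive streak is the region of the gastrulating embryo through which cells leave the epiblast to form mesoderm and definitive endoderm. Nodal, Wnt and BMP signals induce it, and T-box and homeobox factors carry out its programme, with the organizer and node at its anterior end. Stem cells kept in serum are known to hold low levels of these RNAs. Many of the genes are known targets of Polycomb repressive complexes, of which Phc1 encodes a Polyhomeotic subunit.

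Reads counted in genes ranged from 15226214 to 21893821 per library, so that 1 read was worth 0.0484 to 0.0658 CPM (reads of a gene relative to the TMM-scaled total of its library). Phc1 stood at 459.7 and 460.5 CPM in ESC, 40.8 and 34.6 CPM in NPC, and 326 and 267 CPM in Phc1-KO, so the libraries labelled Phc1-KO still held 5529 or more reads of the targeted gene each. Of 6 pluripotency markers all 6 fell in NPC, while in Phc1-KO 2 fell, Dppa3 by 2.63 (SE 0.35) and Nanog by 0.83 (SE 0.16) on the log2 scale, with adjusted p of 0.0119 and 0.0245 by edgeR, and the median of the 6 was -0.71. Pou5f1 and Zfp42 differed there by 0.62 (95% interval 0.20 to 1.04, adjusted p = 0.0701 by edgeR) and 0.28 (95% interval -0.17 to 0.72), and Esrrb by -0.79 (95% interval -1.39 to -0.19, adjusted p = 0.0926 by edgeR). The call of Dppa3 was lost without ESC 1 or ESC 2, and that of Nanog without ESC 1, ESC 2 or Phc1-KO 2. Of 5 progenitor markers 4 rose and 1 fell in NPC, and 1 rose in Phc1-KO: Pax6, at 4.44 and 4.68 CPM in ESC, 21.0 and 16.9 CPM in NPC and 21.5 and 20.8 CPM in Phc1-KO, a log2 change of 2.21 (SE 0.20, adjusted p = 0.00327 by edgeR) that passed with any 1 library left out. Olig2 was at 58.6 to 254 CPM in NPC and at most 0.194 CPM in the other groups, and Nes, Fabp7 and Sox2 differed in Phc1-KO by -0.25 (95% interval -0.95 to 0.45), -1.22 (95% interval -3.19 to 0.76) and -0.30 (95% interval -0.73 to 0.12). Over all genes tested, log2 CPM of the Phc1-KO libraries correlated with ESC at r of 0.962 to 0.963 and with NPC at 0.766 to 0.788, across genes, which are not independent replicates. The ESC libraries lay close together: their counts differed by a chi-square of 1.44 per gene, where the pairs of NPC and Phc1-KO gave 47.5 and 49.8. The coefficient of variation beyond counting noise was 1.98% in ESC, 27.5% in NPC and 18.1% in Phc1-KO. The ESC libraries thus differed by only slightly more than sampling noise, which does not show that they came from separate cultures. They are kept as 2 libraries because the labels call them replicates, with the pair counted as 1 as an alternative. Reads outside genes, per read in a gene, were 0.839 and 0.851 in ESC, 1.03 and 1.09 in NPC, and 1.08 and 0.661 in Phc1-KO.

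All 10 genes were highest in ESC, lower in Phc1-KO and, apart from Gsc, lower again in NPC. In NPC all 10 fell against ESC, where 30.9% of the 17489 genes tested fell (edgeR quasi-likelihood test, Benjamini-Hochberg adjusted p below 0.05). In Phc1-KO all 10 fell as well, against 5.75% of all genes. Both NPC libraries lay below both ESC libraries for all 10, as for 43.4% of all genes, and both Phc1-KO libraries lay below ESC for all 10, as for 34.2% of all genes. For 9 of the 10, Gsc being the exception, the 3 groups did not overlap in the order ESC, Phc1-KO, NPC, an order that 10.2% of all genes showed. The median log2 fold change of the 10 was -2.48 in Phc1-KO against ESC, where that of all genes was 0.000669. In NPC against ESC it was -6.11, or -5.68 with the genes that had no counts in NPC set at their bound, where that of all genes was -0.01. Both comparisons use the same ESC libraries. In bulk RNA, fewer cells that express a gene and less of its RNA per cell cannot be told apart.

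**Figure D1:**
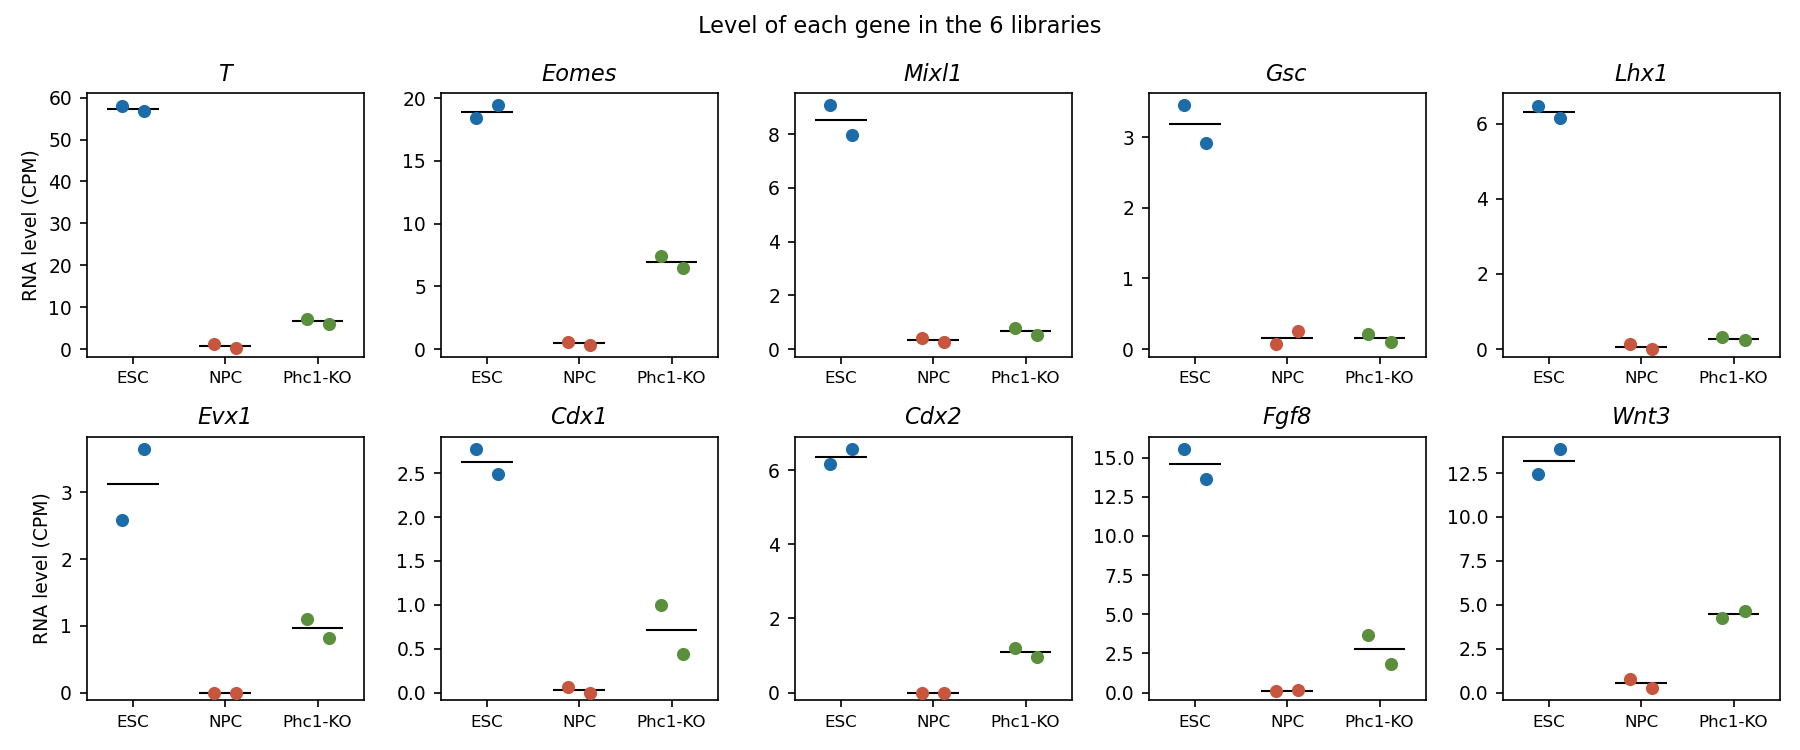
Level of each of the 10 genes in CPM (linear axis, 1 panel per gene) in the 2 libraries of ESC, NPC and Phc1-KO. Points are libraries and black lines group means. Both ESC libraries lie above all 4 others in every panel, as for T at 58.1 and 56.7 CPM.

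The falls in NPC kept their call whichever library was left out, but the calls in Phc1-KO did not. Without Phc1-KO 2, 0 of the 10 passed by edgeR, with adjusted p from 0.0508 to 0.198, and without Phc1-KO 1, 6 did: T, Mixl1, Gsc, Lhx1, Cdx2 and Fgf8. Without ESC 1, and likewise without ESC 2, 3 passed: T, Mixl1 and Lhx1. With the ESC pair counted as 1 library 4 passed, and all 10 passed without either NPC library. The log2 fold changes themselves were negative for all 10 in each of these fits, and all 10 had an unadjusted p below 0.05 with any 1 library left out. Over all genes the number called in Phc1-KO against ESC went from 1864 with all libraries to 1173 without Phc1-KO 1, 138 without Phc1-KO 2, 112 without ESC 1 and 92 without ESC 2, and to 3715 and 3701 without NPC 1 and NPC 2.

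**Figure D2:**
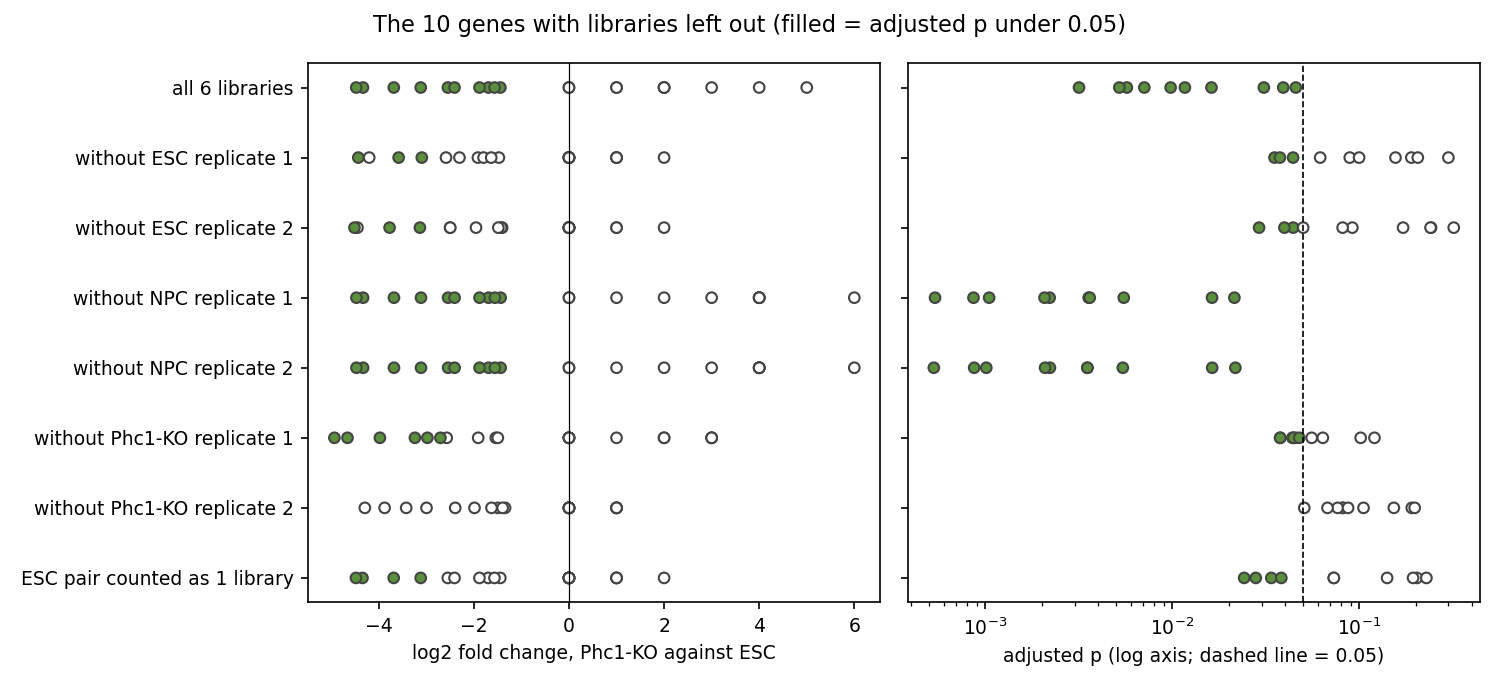
Log2 fold change (left) and adjusted p on a log axis (right) of the 10 genes in Phc1-KO against ESC. Rows are the fits with all 6 libraries, with each left out, and with the ESC pair counted as 1 library. Points below 0 on the left are genes, and filled points have an adjusted p below 0.05. Open points at or above 0 on the left are numbers of genes called on other lists, not fold changes. The fold changes stay below 0 in every row, while the number of filled points runs from 0 without Phc1-KO 2 to 10.

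T encodes Brachyury, the T-box factor that marks the whole streak and is required for posterior mesoderm. It lies on mm9 chromosome 17, 8627288 to 8635361, plus strand (ENSMUSG00000062327). The 250 bases before its RefSeq start (GRCm38.p6, chr17:8434173-8434422, plus strand) are shown because T had the highest level of the 10 and is a known target of Wnt signalling. Capitals mark the letters CTTTGA, the core of the motif bound by the Wnt effectors TCF and LEF, which a search of both strands found on the minus strand.
T: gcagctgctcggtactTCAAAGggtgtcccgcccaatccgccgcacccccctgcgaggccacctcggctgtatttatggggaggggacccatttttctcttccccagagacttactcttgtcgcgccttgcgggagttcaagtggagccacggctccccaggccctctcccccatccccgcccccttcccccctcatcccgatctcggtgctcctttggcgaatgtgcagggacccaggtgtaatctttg
The match runs from 234 to 229 bases before the start. Of all 32841 RefSeq windows of this length, 13.8% hold these letters on either strand, so a match describes the letters only. Binding was not tested.

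T was read at 58.1 and 56.7 CPM in ESC, 7.17 and 6.05 CPM in Phc1-KO, and 1.25 and 0.325 CPM in NPC. The groups did not overlap, and the NPC libraries lay further apart than either other pair in relative terms. In Phc1-KO the level of T fell by 3.12 on the log2 scale (SE 0.34, 95% interval -3.92 to -2.31, adjusted p = 0.00571 by edgeR). In NPC it fell by 6.18 on the log2 scale (SE 0.43, adjusted p = 5.18e-05 by edgeR). The Phc1-KO level remained 8.35-fold above that of NPC (adjusted p = 7.95e-04 by edgeR). Without Phc1-KO 2 the difference from ESC had an adjusted p of 0.0817.

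Eomes, the other T-box factor of the group, acts in the early streak and the definitive endoderm, and is also known from trophoblast stem cells. It lies on chromosome 9, 118387330 to 118395250, plus strand (ENSMUSG00000032446). Its levels were 18.4 and 19.4 CPM in ESC, 7.44 and 6.48 CPM in Phc1-KO, and 0.592 and 0.325 CPM in NPC. Of the 10 it showed the smallest log2 change in Phc1-KO, -1.44 (SE 0.24, 95% interval -2.01 to -0.88, adjusted p = 0.0162 by edgeR). The intervals of Eomes and T did not overlap, and their difference was not tested. In NPC the change was -5.35 (SE 0.32, adjusted p = 3.04e-05 by edgeR). T and Eomes thus stood side by side in Phc1-KO, at 6.61 ± 0.797 and 6.96 ± 0.675 CPM (SD, n = 2), after levels of 57.4 ± 0.994 and 18.9 ± 0.681 CPM in ESC. Per kilobase of exon the order in Phc1-KO was still T above Eomes, at 2.86 and 1.67 CPM per kilobase. The Phc1-KO call of Eomes was lost without ESC 1, ESC 2, Phc1-KO 1 or Phc1-KO 2, with adjusted p of 0.156, 0.172, 0.0557 and 0.105.

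Mixl1, Gsc and Lhx1 are homeobox genes of the mesendoderm and organizer. Mixl1 acts in the streak and its endoderm descendants, Gsc (Goosecoid) marks the organizer, and Lhx1 is a LIM-homeodomain factor required for head formation. These 3 genes had the largest log2 changes of the 10 in Phc1-KO. Mixl1 (chromosome 1, 182623174 to 182627165, minus strand, ENSMUSG00000026497) was at 9.07 and 7.97 CPM in ESC, 0.786 and 0.532 CPM in Phc1-KO, and 0.395 and 0.260 CPM in NPC. It fell in Phc1-KO by 3.68 on the log2 scale (SE 0.33, adjusted p = 0.00317 by edgeR) and in NPC by 4.67 (SE 0.38). Without Phc1-KO 2 its adjusted p in the knock-out was 0.0508.

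Gsc (chromosome 12, 105709419 to 105711537, minus strand, ENSMUSG00000021095) was at 3.45 and 2.92 CPM in ESC, 0.209 and 0.0968 CPM in Phc1-KO, and 0.0658 and 0.260 CPM in NPC. The Phc1-KO and NPC libraries overlapped, and they rested on few reads, 6 over both Phc1-KO libraries and 5 over both NPC libraries. Its log2 change was -4.33 in Phc1-KO (SE 0.51, adjusted p = 0.00708 by edgeR) and -4.23 in NPC (SE 0.53, adjusted p = 5.46e-04 by edgeR). Without ESC 1, ESC 2 or Phc1-KO 2 the adjusted p in Phc1-KO was 0.0618, 0.0501 or 0.0817.

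Lhx1 (chromosome 11, 84331479 to 84338923, minus strand, ENSMUSG00000018698) was at 6.48 and 6.14 CPM in ESC and at 0.314 and 0.242 CPM in Phc1-KO, where it fell by 4.47 on the log2 scale (SE 0.47, 95% interval -5.58 to -3.37, adjusted p = 0.00521 by edgeR). Both NPC libraries together held 2 reads of it, 96.5-fold below ESC (95% counting interval 26.4 to 803). Its Phc1-KO call was lost without Phc1-KO 2, at an adjusted p of 0.0766.

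For Gsc and Lhx1 the 250 bases before the RefSeq start are shown. Among the windows used they have the highest ratio of CpG to the number their C and G content gives. CpG dinucleotides, which are a known feature of Polycomb target promoters, are in capitals. The windows are chr12:104473237-104473486 for Gsc and chr11:84525535-84525784 for Lhx1, both on the minus strand of GRCm38.p6.
Gsc: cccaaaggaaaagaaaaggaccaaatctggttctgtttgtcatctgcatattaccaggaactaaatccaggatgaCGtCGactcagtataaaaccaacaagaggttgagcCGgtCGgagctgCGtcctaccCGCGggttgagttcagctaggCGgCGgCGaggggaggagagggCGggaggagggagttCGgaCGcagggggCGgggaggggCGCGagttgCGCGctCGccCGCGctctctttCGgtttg
Lhx1: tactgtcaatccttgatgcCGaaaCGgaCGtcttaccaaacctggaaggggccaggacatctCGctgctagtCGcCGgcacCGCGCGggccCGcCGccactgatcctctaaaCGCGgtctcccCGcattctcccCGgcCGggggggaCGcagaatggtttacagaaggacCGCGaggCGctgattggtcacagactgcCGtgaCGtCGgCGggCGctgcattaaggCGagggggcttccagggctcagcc
The Gsc window holds 22 CpG, 1.06 times the number its C and G content gives, and the Lhx1 window 26, a ratio of 0.991. The window of T has 14 and a ratio of 0.594, and that of Wnt3 has 22, as many as Gsc, at a higher GC content. Windows were found for 7 of the 10 genes; Mixl1, Cdx1 and Fgf8 had no entry. Eomes, Evx1, Cdx2 and Wnt3 had ratios of 0.621, 0.676, 0.690 and 0.768, against a median of 0.374 over all windows. A ratio above 0.6 with a GC content above 50% was met by 4 of the 7, Gsc, Lhx1, Cdx2 and Wnt3, and by 30.8% of all windows. The core CTTTGA was found in 1 of the 7, that of T. The T-box half-site TCACACC and the FOXH1 core AATNCACA, searched on both strands, were found in 0 of the 7, and in 3.33% and 3.19% of all windows.

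Evx1, Cdx1 and Cdx2 are homeobox genes of the posterior streak and body axis. Evx1 marks the proximal and posterior streak, and the Cdx factors pattern the posterior axis and are known regulators of Hox genes; Cdx2 is also a defining factor of trophoblast. Evx1 (chromosome 6, 52263492 to 52268372, plus strand, ENSMUSG00000005503) was at 2.59 and 3.65 CPM in ESC against 1.10 and 0.822 CPM in Phc1-KO. No read of it was counted in NPC, which puts NPC at least 31.9-fold lower than ESC taking 3 counts over both libraries as the floor. In Phc1-KO its log2 change was -1.70 (SE 0.36, 95% interval -2.58 to -0.81, adjusted p = 0.0392 by edgeR). That call was lost without ESC 1, ESC 2, Phc1-KO 1 or Phc1-KO 2 (adjusted p of 0.190, 0.320, 0.102 and 0.191). The non-coding gene 5730457N03Rik overlaps Evx1 on the opposite strand over 73 bases, 2.54% of the exon bases of Evx1. Its own levels were 1.60 and 1.58 CPM in ESC, 0.314 and 0.484 CPM in Phc1-KO and 0 in NPC, and it fell in Phc1-KO by 1.97 on the log2 scale (SE 0.39, adjusted p = 0.0332 by edgeR). The strand setting of the counting is not given in the sources used here, so how reads from the shared bases were assigned is not known.

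Cdx1 (chromosome 18, 61178516 to 61195853, minus strand, ENSMUSG00000024619) was at 2.78 and 2.49 CPM in ESC, and at 0.995 and 0.435 CPM in Phc1-KO, a pair that differed more than 2-fold. Over both NPC libraries 1 read was counted, 80.6-fold below ESC with a 95% counting interval of 14.1 to 3221. The log2 change in Phc1-KO was -1.88 (SE 0.46, 95% interval -2.97 to -0.80), with an adjusted p of 0.0458 by edgeR, the nearest of the 10 to the threshold. DESeq2 gave an adjusted p of 0.0888 for Cdx1 and 0.0791 for Evx1. Leaving out ESC 1, ESC 2, Phc1-KO 1 or Phc1-KO 2 gave Cdx1 an adjusted p of 0.300, 0.242, 0.0638 or 0.198.

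Cdx2 (chromosome 5, 148112381 to 148118846, minus strand, ENSMUSG00000029646) was at 6.17 and 6.57 CPM in ESC, 1.20 and 0.968 CPM in Phc1-KO, and 0 in both NPC libraries, at least 65.0-fold below ESC. It fell in Phc1-KO by 2.55 on the log2 scale (SE 0.31, 95% interval -3.29 to -1.80, adjusted p = 0.00979 by edgeR). Without ESC 1, ESC 2 or Phc1-KO 2 its adjusted p was 0.0889, 0.0918 or 0.0871. Per kilobase of exon Cdx2 stood above Cdx1 in ESC, at 2.82 against 1.51 CPM per kilobase, and the 2 genes overlapped in Phc1-KO, at 0.480 and 0.409 CPM per kilobase.

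Fgf8 and Wnt3 encode secreted ligands. Fgf8 is needed for cells to leave the streak, and Wnt3 is the ligand that starts streak formation. Fgf8 (chromosome 19, 45811288 to 45817405, minus strand, ENSMUSG00000025219) was at 15.5 and 13.6 CPM in ESC and at 3.67 and 1.84 CPM in Phc1-KO, with Phc1-KO 1 the higher, as for every other gene of the group except Wnt3. The NPC libraries held 3 reads of Fgf8 in all, 149-fold below ESC (95% counting interval 50.6 to 724). In Phc1-KO it fell by 2.41 on the log2 scale (SE 0.36, 95% interval -3.25 to -1.57, adjusted p = 0.0117 by edgeR). Wnt3 (chromosome 11, 103635464 to 103679271, plus strand, ENSMUSG00000000125) was at 12.5 and 13.9 CPM in ESC, 4.24 and 4.64 CPM in Phc1-KO, and 0.789 and 0.260 CPM in NPC. Its log2 change was -1.57 in Phc1-KO (SE 0.33, 95% interval -2.34 to -0.79, adjusted p = 0.0309 by edgeR) and -4.63 in NPC (SE 0.42, adjusted p = 1.43e-04 by edgeR). The Phc1-KO calls were lost for Fgf8 without ESC 1, ESC 2 or Phc1-KO 2 (adjusted p of 0.0998, 0.0815 and 0.0676). For Wnt3 they were lost without ESC 1, ESC 2, Phc1-KO 1 or Phc1-KO 2 (adjusted p of 0.206, 0.241, 0.121 and 0.153).

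**Figure D3:**
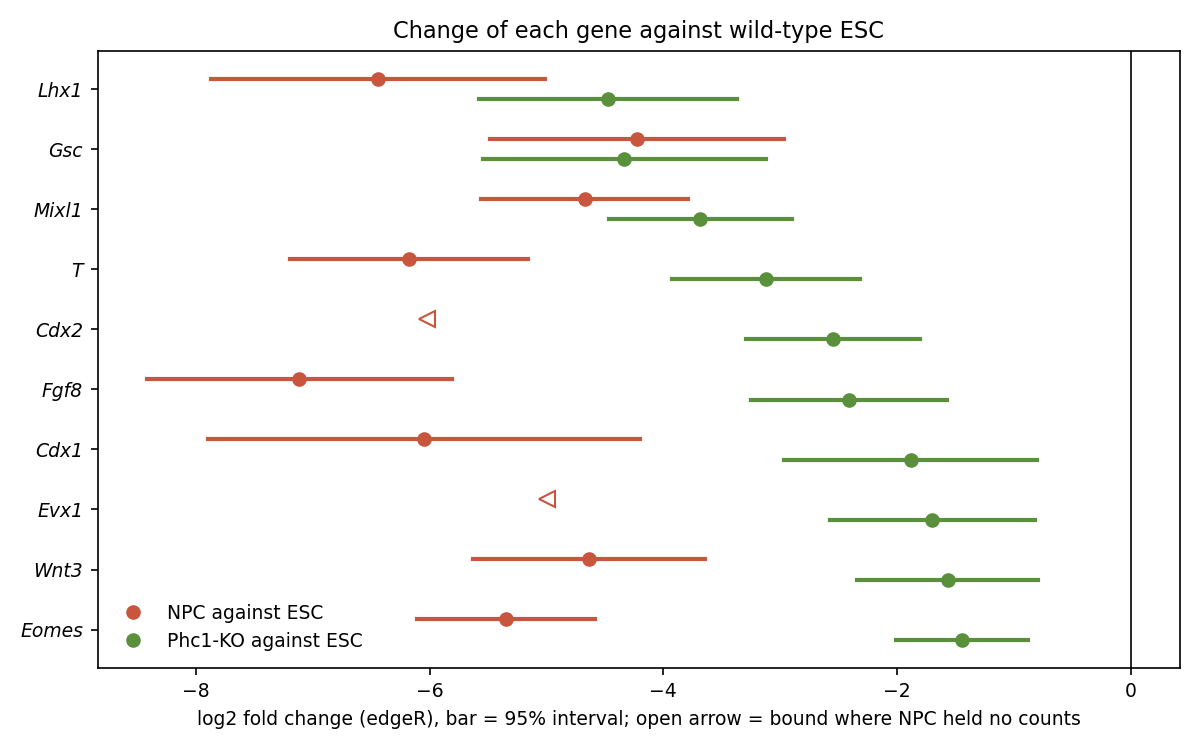
Log2 fold change against ESC with its 95% interval for each of the 10 genes, in NPC (red) and Phc1-KO (green), ordered by the change in Phc1-KO; values are fitted, and open arrows are bounds for Cdx2 and Evx1, which had no counts in NPC. Changes in Phc1-KO run from -4.47 for Lhx1 to -1.44 for Eomes, and the 2 intervals of Gsc lie on each other.

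Compared directly with NPC, Phc1-KO held more RNA of 7 of the 10 genes: T, Eomes, Evx1, Cdx1, Cdx2, Fgf8 and Wnt3 (edgeR, adjusted p from 8.86e-05 for Eomes to 0.00616 for Cdx1), where 32.3% of all genes were higher, and 0 were lower, where 32.7% of all genes were. Both Phc1-KO libraries lay above both NPC libraries for 9 of the 10, as for 40.9% of all genes. Evx1 and Cdx2 were at least 9.75-fold and 11.0-fold higher, against the floor of 3 counts in NPC. The other 3 were Mixl1, Gsc and Lhx1. By edgeR the log2 difference was 0.99 for Mixl1 (95% interval -0.06 to 2.04, adjusted p = 0.0862) and -0.11 for Gsc (95% interval -1.96 to 1.75, adjusted p = 0.915). Lhx1 was 4.23-fold higher in Phc1-KO by its pooled reads, with a 95% counting interval of 0.924 to 39.3, and did not pass (adjusted p = 0.0821 by edgeR). These intervals are wide, since NPC held 10, 5 and 2 reads of the 3 genes, and do not show that the levels were alike. Without NPC 1, which held both NPC reads of Lhx1, Lhx1 passed too (adjusted p = 0.0209). The log2 difference of Gsc was 1.12 without NPC 2 and 0.36 without Phc1-KO 2, and passed in neither.

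As a share of the ESC level, Phc1-KO kept 36.8% of Eomes, 33.8% of Wnt3, 30.8% of Evx1, 27.1% of Cdx1, 18.9% of Fgf8, 17.1% of Cdx2, 11.5% of T, 7.73% of Mixl1, 4.80% of Gsc and 4.41% of Lhx1. Levels per kilobase of exon in ESC ran in the order T, Fgf8, Eomes, Wnt3, Mixl1, Cdx2, Gsc, Lhx1, Cdx1 and Evx1, from 24.8 ± 0.430 CPM per kilobase for T down to 1.08 ± 0.260 for Evx1 (SD, n = 2). Neighbours whose libraries overlapped were Eomes with Wnt3, Cdx2 with Gsc, and Lhx1 with Cdx1. T thus reached percentile 89.3 of the genes detected in ESC, and Evx1 percentile 45.9. In Phc1-KO the order was T, Fgf8, Eomes, Wnt3, Cdx2, Cdx1, Evx1, Mixl1, Gsc and Lhx1, from 2.86 ± 0.345 to 0.0674 ± 0.0124 CPM per kilobase. There T overlapped Fgf8, Fgf8 overlapped Eomes, and the neighbours from Cdx2 to Mixl1 overlapped each other. By group means Mixl1, ahead of Cdx2, Cdx1 and Evx1 in ESC, stood behind these 3 in Phc1-KO. Its libraries there overlapped those of Cdx1 and Evx1 but not those of Cdx2. In NPC the highest group mean was that of T, 0.340 CPM per kilobase, with libraries at 0.540 and 0.140. Only Fgf8 and Cdx1 were neighbours in the NPC order without overlap.

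Among the signals that induce the streak, the RNA of most did not pass the test in Phc1-KO. Of 17 genes tested on a list of these ligands, receptors and effectors, 1 rose and 2 fell, and the median log2 change was -0.12; of all genes 4.91% rose and 5.75% fell. Nodal, the TGF-beta ligand that induces mesendoderm, was at 52.1 and 47.9 CPM in ESC against 55.4 and 53.7 CPM in Phc1-KO (log2 difference 0.13, 95% interval -0.23 to 0.48). Its co-receptor Tdgf1 differed by 0.19 (95% interval -0.20 to 0.58) and Foxh1, the nuclear partner of its SMAD effectors, by 0.39 (95% interval -0.20 to 0.99). Gdf3, a related ligand, rose by 1.14 (SE 0.19), while the activin receptor genes Acvr1b and Acvr2b fell by 1.10 (SE 0.15) and 0.95 (SE 0.20) on the log2 scale. The adjusted p of these 3 was 0.0174, 0.00943 and 0.0309 by edgeR. In NPC 7 of the 17 fell and 5 rose, where 30.4% of all genes rose, Tdgf1 by a log2 change of -10.02 (SE 0.28) and Nodal by -7.54 (SE 0.25). Without ESC 1, ESC 2 or Phc1-KO 2, 0 of the 17 passed in Phc1-KO by edgeR, where 3, 3 and 4 had an unadjusted p below 0.05. Without Phc1-KO 1 only the 2 falls passed. Without either NPC library 1 rose and 4 fell.

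Targets and feedback antagonists of Wnt and Nodal went both ways in Phc1-KO, with 3 of 12 higher and 2 lower and a median log2 change of 0.11. Sp5, a transcription factor induced by Wnt in the streak, fell from 16.2 and 15.3 CPM to 1.83 and 1.50 CPM, a log2 change of -3.24 (SE 0.28, adjusted p = 0.00291 by edgeR). Axin2, a feedback inhibitor of Wnt, fell by 1.79 on the log2 scale (SE 0.26, adjusted p = 0.0105 by edgeR). Lef1, Notum and Lefty1 rose, by log2 changes of 1.23 (SE 0.17), 1.36 (SE 0.26) and 1.61 (SE 0.18), the last an inhibitor of Nodal that went from 134 and 129 to 336 and 471 CPM. Lefty2 differed by -0.08 (95% interval -0.52 to 0.36) and Cer1, at 0.740 CPM or less in ESC and Phc1-KO, by -2.90 (95% interval -5.19 to -0.61, adjusted p = 0.102 by edgeR). In NPC 8 of the 12 were lower and 1 higher. Without ESC 1 or ESC 2 only Sp5 passed in Phc1-KO, without Phc1-KO 2 only Lefty1, without Phc1-KO 1 the same counts of 3 and 2 were reached, and without either NPC library 3 rose and 4 fell.

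Of 20 tested genes on a list of other streak, mesoderm, node and endoderm markers, 2 rose and 1 fell in Phc1-KO, with a median log2 change of -0.03. Msgn1, a factor of the paraxial mesoderm, went from 0.740 and 0.730 CPM to 0 and 0.0484 CPM (adjusted p = 0.0215 by edgeR), a single read over both Phc1-KO libraries. Pdgfra, a growth factor receptor of mesoderm and many mesenchymal cells, rose by 2.88 (SE 0.24) and Wnt5a by 0.76 (SE 0.15), and both rose in NPC as well, by 3.76 (SE 0.25) and 2.19 (SE 0.16). Mesp2 and Tbx6, both of the early mesoderm, differed in Phc1-KO by 0.20 (95% interval -0.88 to 1.28) and -0.05 (95% interval -0.73 to 0.63), and Mesp1, at 0.426 CPM or less in every library, was not tested. In NPC 11 of the 20 fell and 3 rose. Sox17, an endoderm factor, fell in NPC to 0 counts and differed in Phc1-KO by 1.11 (adjusted p = 0.191 by edgeR). Wnt8a, Fgf5 and Nkx1-2, which are known from the epiblast and streak, fell there, Fgf5 by 5.20 on the log2 scale (SE 0.28), while Wnt8a had 0 and 0.0649 CPM left and Nkx1-2 had 0.0658 and 0.0649 CPM. In Phc1-KO their log2 differences were 0.25 (95% interval -0.44 to 0.94), -0.18 (95% interval -0.65 to 0.30) and 0.34 (95% interval -0.35 to 1.03). Only Pdgfra passed in Phc1-KO without ESC 1, ESC 2, Phc1-KO 1 or Phc1-KO 2, and without either NPC library 2 rose and 4 fell.

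The closest relatives of the 10 genes were mostly near the floor. Of 11 listed, 6 were tested and 0 passed in Phc1-KO by edgeR with all 6 libraries, with 0 also by DESeq2 and limma-voom. An unadjusted p below 0.05 was reached by 1, 0 and 3 of the 6 with the 3 tools. Cdx4, the other member of its family, was at 0.617 and 0.912 CPM in ESC against 0.105 and 0.194 CPM in Phc1-KO (log2 difference -2.29, 95% interval -3.68 to -0.90, adjusted p = 0.0525 by edgeR). Fgf17, a relative of Fgf8, was at 17.1 and 15.1 CPM in ESC against 8.33 and 11.7 CPM in Phc1-KO (log2 difference -0.68, 95% interval -1.42 to 0.05). Wnt3a differed by -1.11 (95% interval -2.35 to 0.12) and Otx2, a head homeobox gene related to Gsc, by 0.28 (95% interval -0.32 to 0.87). Tbr1, related to Eomes, differed by -0.77 (95% interval -2.20 to 0.66), and Tbx19 and Tbx21 were not tested. In NPC 4 of the 6 fell: Otx2, Cdx4, Fgf17 and Wnt3a. With total-count scaling, in a fit of ESC and Phc1-KO alone, and without either NPC library, 1 relative passed in Phc1-KO.

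**Figure D4:**
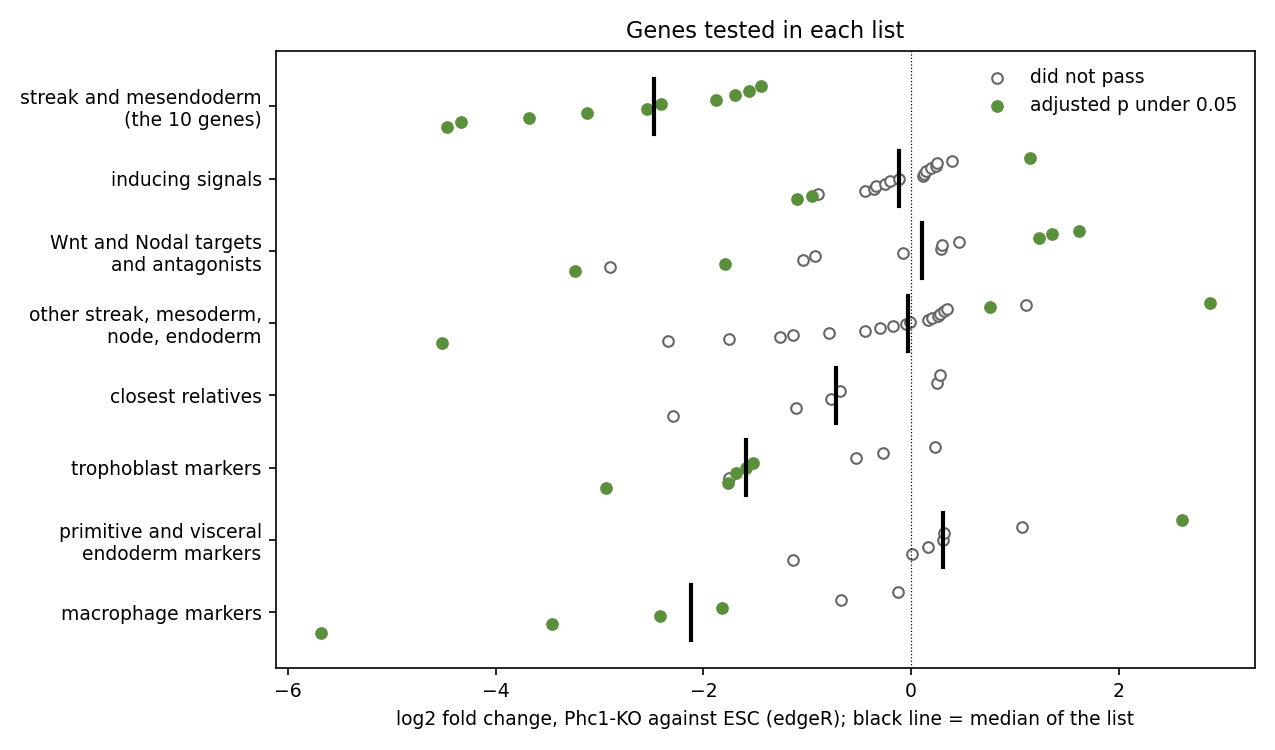
Log2 fold change in Phc1-KO against ESC of each gene tested on 8 lists; filled points have an adjusted p below 0.05 and black lines are list medians. The 10 streak and mesendoderm genes are all filled and below 0, with a median of -2.48, while the medians of the inducing signals and of the other streak genes are -0.12 and -0.03.

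Of the macrophage markers 6 of 6 fell in NPC and 4 of 6 in Phc1-KO, and of the trophoblast markers tested 7 of 9 fell and 1, Elf5, rose in NPC, while 5 of 9 fell in Phc1-KO. The 10 genes together summed to 135.1 and 133 CPM in ESC, 27.1 and 22.1 CPM in Phc1-KO and 3.35 and 1.56 CPM in NPC. The 6 macrophage markers summed to 133 and 134 CPM in ESC, 26.1 and 19.7 CPM in Phc1-KO and 5.52 and 7.79 CPM in NPC. Of the 6, 4 fell in Phc1-KO, among them Emr1, the surface protein F4/80, by 5.69 on the log2 scale (SE 0.35), Lyz2 by 3.46 (SE 0.41), Ptprc by 2.42 (SE 0.39) and Csf1r by 1.82 (SE 0.29). The 10 trophoblast markers summed to 253 and 257 CPM in ESC, 78.2 and 85.8 CPM in Phc1-KO and 7.76 and 11.2 CPM in NPC. Those that fell in Phc1-KO were Krt7, Krt8, Krt18, Tfap2c and Ascl2, while Esx1 differed by 0.23 (adjusted p = 0.668 by edgeR). Tpbpa, a defining trophoblast gene, was at 0 in all 6 libraries, and Elf5 was at most 0.432 CPM in ESC and Phc1-KO. Hand1 is on the trophoblast list and on that of other streak genes. The 10 primitive and visceral endoderm markers, of which Gata4, Gata6 and Foxa2 are also on the latter list, summed to 33.6 and 34.6 CPM in ESC against 72.4 and 50.7 CPM in Phc1-KO, where Cubn rose by 2.61 (SE 0.23) and the other 6 tested, among them Sox7, Dab2 and Amn, did not pass; Afp was at 0 in ESC and NPC. The feeder fibroblast markers summed to 412 and 408 CPM in ESC and to 7239 and 11659 CPM in NPC, where 9 of 10 were higher and 0 lower. In Phc1-KO they summed to 937 and 772 CPM, with 5 of 10 higher, Dcn, Lum, Postn, Fap and Prrx1, and 0 lower. The collagen genes Col1a1, Col1a2 and Col3a1 did not pass there, with log2 differences of 0.13, 0.62 and -0.28. Neither Cd68 nor Itgam of the macrophage list passed. The part of these cell types in the fall of the 10 genes was not tested. Without ESC 1, ESC 2 or Phc1-KO 2, macrophage markers fell for 2, 2 and 1 and trophoblast markers for 1, 0 and 1. Without Phc1-KO 1 the numbers were 3 and 3.

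**Figure D5:**
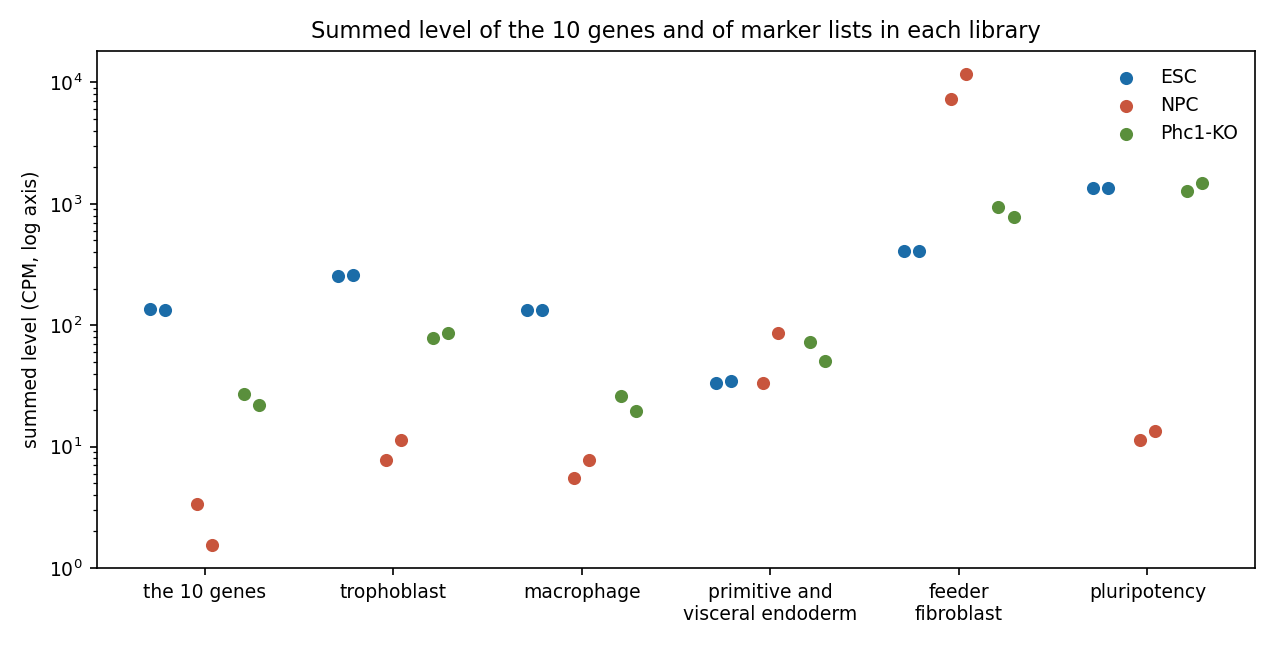
Summed level (CPM, log axis) of the 10 genes and of 5 marker lists in each library; points are libraries. The sums of the 10 genes, the trophoblast markers and the macrophage markers run from high in ESC through Phc1-KO to low in NPC, while the pluripotency sum is 1267 and 1470 CPM in Phc1-KO and 1357 and 1358 CPM in ESC, with 2 of its 6 genes, Dppa3 and Nanog, lower in Phc1-KO.

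Genes of most similar pattern were found by the root mean square difference of centred log2 CPM over the 6 libraries. Genes without a symbol, or with only a numbered, clone or accession name, were left out of this ranking. For T the nearest were Ephx2 (0.391), Cdx2 (0.546) and Atp6v0a4 (0.571). For Eomes they were Gtsf1l (0.142), Slc30a3 (0.178) and Cnksr1 (0.204), and for Mixl1 they were Sp5 (0.174), Tmprss2 (0.204) and Tnf (0.213). The nearest to Gsc were Frem2 (0.176), Marco (0.267) and C4bp (0.354), and to Lhx1 they were Clec4n (0.359), Cyp26a1 (0.363) and Mixl1 (0.435). Evx1 lay nearest to Gulo (0.166), Sfmbt2 (0.170) and Lilrb4 (0.221), and Cdx1 to F5 (0.215), Ms4a6d (0.253) and Gp49a (0.274). Cdx2 and Fgf8 were each other's nearest gene (0.286), followed for both by Ltb (0.295 and 0.417), then Cldn3 (0.309) for Cdx2 and Dnahc8 (0.441) for Fgf8. Wnt3 lay nearest to Kctd19 (0.157), Slc2a1 (0.174) and Ppp4r4 (0.193). Marco, Clec4n, Lilrb4, Ms4a6d and Gp49a are known as genes of macrophages and other myeloid cells, whose summed markers are given above. Among the 10 themselves, the pair farthest apart was Eomes and Gsc, at 1.59.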

How the data were processed

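The authors deposited 6 tables, 1 per library, of whole-number read counts for 37620 Ensembl genes, with no normalization, each ending in 5 tallies of uncounted reads. Per the submitters' processing notes, STAR, HTSeq and the mm9 genome were used; the sources used here give no version, annotation release or strand setting. The tallies were left out; reads in no gene or ambiguous were 41.2% to 53.0% of these and the gene reads together. Symbols, positions and exon lengths came from GENCODE M1 (mm9), which named 37205 genes; 122 of 123 list entries matched, 2 by an older name.

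Counts were tested with edgeR 4.0.16 (quasi-likelihood test, 1 term per group, 6 libraries, 3 residual degrees of freedom) in R 4.3.3, after filterByExpr (minimum count 10, minimum total 15) and TMM scaling. P values were adjusted by Benjamini-Hochberg over 17489 genes, with a threshold of 0.05. P values weigh a group difference against the spread between these libraries. In the main fit all groups share that estimate, so the test of Phc1-KO against ESC also draws on the spread of the NPC pair. SE is the log2 fold change divided by the square root of F. Counting intervals are exact at 95%; they and the floor of 3 counts over a group cover counting error only, since reads carry no molecular identifiers.

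Genes named were the 10, and of each other list the first 3 as written and the 5 largest changes that passed in a comparison, with the 3 genes of nearest pattern (log2 CPM, prior count 2); defining markers at 0 and the antisense gene are named beyond this rule, and 1 gene it selects is not reported here. Members and lists were chosen with earlier results of these data known. Alternatives were DESeq2 1.42.0, limma-voom (limma 3.58.1), other scalings and filters, fits of 2 groups, a replicate block, the ESC pair as 1 library, a test against a 2-fold change, and each library left out. The fit was tested on simulated data. Promoter sequences are from RefSeq (GRCm38.p6). Figures used matplotlib 3.10.9.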

Additional observations from a re-analysis of the deposited data

How the results depend on the processing

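All 170 fold changes of the 10 genes in NPC against ESC, over 17 alternatives, kept their direction and their call. In Phc1-KO against ESC all 170 kept their direction and 44 lost their call. DESeq2 called 8 of the 10 and no filter 9. Against a 2-fold change 4 passed, T, Mixl1, Gsc and Lhx1, and with the ESC pair as 1 library 4. Leaving out 1 library gave 0 to 10 of the 10. In Phc1-KO against NPC 2 of 166 reversed, both for Gsc, which ranged from -0.75 to 1.12 with 1 library left out and was 0.36 without Phc1-KO 2; 4 values were missing because Mixl1, Gsc, Lhx1 and Cdx1 did not pass the filter in the fit of those 2 groups. Over all genes, the number called in Phc1-KO against ESC was 1864, and 3899 when only these groups were fitted, 145 with the ESC pair as 1 library, 178 against a 2-fold change, and 92 to 3715 with 1 library left out. Against a 2-fold change 5213 were called in NPC against ESC and 5779 in Phc1-KO against NPC. Total-count scaling called 683 higher and 1223 lower in Phc1-KO against ESC, where TMM called 858 and 1006. Upper-quartile scaling gave all genes a median of -0.11 in NPC against ESC.

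Same-numbered libraries did not deviate together, with r across genes of 0.0174 for ESC and NPC, 0.0202 for ESC and Phc1-KO, and -0.0207 for NPC and Phc1-KO. The values with ESC cannot decide whether libraries were paired, since the ESC pair differed by little more than counting noise. With the replicate number as a block 1427 genes were called in Phc1-KO against ESC, 10424 in NPC against ESC and 11061 in Phc1-KO against NPC. Then 9 of the 10 fell in Phc1-KO, Evx1 having an adjusted p of 0.0600 by edgeR, and 10 in NPC. Depth limits the NPC values of Evx1 and Cdx2, with no reads in that pair, and of Gsc, Lhx1, Cdx1 and Fgf8, with 5, 2, 1 and 3, and the Phc1-KO values of Gsc and Lhx1, with 6 and 11. The causes of the lost calls were not tested.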
